A study of Mus musculus with 6 samples.

Results

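The genes described here are 8 small interferon-induced genes of the mouse, taken by symbol from a table of 41388 Ensembl genes measured by RNA-Seq in WT and Irf1-/- Th9 cells, Irf1 being the gene of the transcription factor IRF1. They are Ifitm1, Ifitm2 and Ifitm3, the neighbouring pair Ifi27 and Ifi27l2a, the partner genes Ifi35 and Nmi, and Xaf1. The libraries came from 3 WT and 3 Irf1-/- cultures of mice on a C57BL/6 background, which by the methods of the study were aged 8 to 12 weeks and matched for sex and age. T cells were taken from spleen and lymph nodes by magnetic negative selection, and the methods name them as naive CD4+ T cells. For some experiments the methods add a sort of naive cells by flow cytometry, which would remove myeloid cells, without saying whether it was used for these libraries. The methods give all 6 cultures as stimulated through CD3 and CD28, and they were kept for 2 days with IL-2, IL-4, TGF-β and IFN-γ. The methods of T cell culture add an antibody against mouse IFN-γ, with the IFN-γ given from rat, so that every library, WT or Irf1-/-, came from IFN-γ-treated cells and none from untreated ones. The Irf1-/- genotype is that of the whole animal, not of T cells alone, and these data cannot tell a loss of IRF1 during the culture from a loss before it.

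Interferons act through receptors, JAK kinases and STAT factors, some of which bind GAS elements. Irf1 is among the genes induced, and its protein binds interferon-stimulated response elements (ISRE) and related sequences. The IFITM proteins are short membrane proteins that hinder the fusion of enveloped viruses with cell membranes, IFITM3 mainly in endosomes and IFITM1 mainly at the cell surface. Ifi27 and Ifi27l2a code for small hydrophobic proteins of mitochondria and the nuclear envelope, NMI and IFI35 bind each other and interact with STAT factors and signalling proteins, and XAF1 binds the caspase inhibitor XIAP and promotes cell death. All are used in many tissues as markers of a response to interferon.

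In WT cells, 5 of the 8 genes were detected at a mean normalized count of 10 or more, and 4 of these 5 were lower in Irf1-/- cells at an adjusted p under 0.05 in limma, against 12.4% of all 11379 genes tested. Ifi27l2a fell furthest, to 41.4% of its WT level, followed by Nmi with 55.8% and Ifi27 with 58.2%, while Ifi35 kept 79.1%. Ifitm2, by normalized count far above the other Ifitm genes in these cells, was at 98.5 ± 5.72 in WT and 103 ± 18.2 in Irf1-/- cells (SD, n = 3 each). Ifitm1, Ifitm3 and Xaf1 had between 0 and 7 reads in each library and were not tested.

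The promoters of 6 of the 8 genes were read from RefSeq on GRCm38.p6, from 250 bases before to 50 bases after the annotated start site. Ifi27 and Ifi27l2a had no entry. The window was searched on both strands for AANNGAAA, a short core of the ISRE, and for TTCNNNGAA, the GAS element, with N for any base. Of all 32851 promoters in the table, 23.9% held the ISRE core and 8.30% the GAS element. Among the 6 genes, 5 held the ISRE core, 2 the GAS element and 1, Ifitm1, neither. The 30 bases around each match are shown because they set Nmi and Ifi35, which fell, beside Ifitm2, which was not called, and the untested Ifitm3 and Xaf1. They are read 5′ to 3′ along the gene's strand with the matches in capitals.
Ifitm2: caccaacaggaAAAGGAAAttgctagagaa
Ifitm3: gaAAAGGAAAcTTCTGAGAAACCGAAActg
Ifi35: agcagaaTTCACAGAAATGAAAgtggaagt
Nmi: atttttctagcAAAGGAAAagttcacatct
Xaf1, before the start site: gctgggcaaacacTTTCAGTTttgttttcc
Xaf1, after the start site: tgtgtgcaaagAAACGAAActccacagaag

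These stretches lie at chr7:140955987-140956016 for Ifitm2 and chr7:141010713-141010742 for Ifitm3, both on the - strand, at chr11:101448412-101448441 for Ifi35 on the + strand, at chr2:51973364-51973393 for Nmi on the - strand, and at chr11:72301599-72301628 and chr11:72301629-72301658 for Xaf1 on the + strand. In Ifitm3 a GAS element lay between a pair of ISRE cores and shared its last base with the second of them, and in Ifi35 the GAS element overlapped the ISRE core by 2 bases. In both genes the matches lay just after the RefSeq start site. The matches of Ifitm2 and Nmi began 44 and 174 bases before the RefSeq start site. They had the same letters, AAAGGAAA, as the first ISRE core of Ifitm3. Nmi fell, Ifitm2 was not called and Ifitm3 was not tested, and the part of the matches in this was not tested. The upstream match of Xaf1 was on the opposite strand, 17 bases before the start site. The start sites of RefSeq and GENCODE vM21 did not always coincide. That of Nmi lay 286 bases inside the GENCODE gene, so that its match is upstream of the RefSeq start at 51973208 and inside the gene by the GENCODE start at 51973494. The RefSeq start lay 855 bases inside the gene for Ifitm1, 26 for Ifitm2 and Ifitm3, 5 for Ifi35 and 0 for Xaf1. A match describes the sequence only, and binding was not measured in these libraries.

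**Figure D1:**
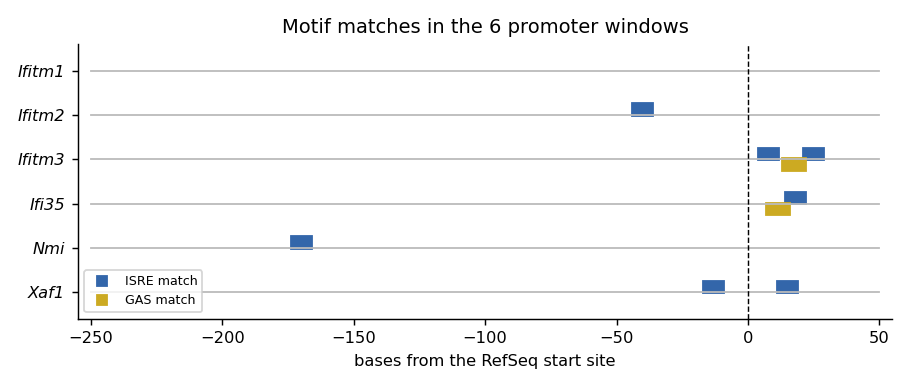
Positions of matches to the ISRE core (blue) and the GAS element (yellow) in the promoter windows of 6 genes, in bases from the RefSeq start site (dashed line), from 250 bases before to 50 bases after it. Ifitm1 has none, Nmi has a single match, before its RefSeq start site but inside the gene by the GENCODE start, and the matches of Ifitm3 and Ifi35 lie just after the start site.

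The reads on genes per library ranged from 5639788 to 13348230, and 3 reads were worth a normalized count between 1.84 and 4.16. Replicate 3 of each genotype was sequenced deepest. Replicates 1 and 2 differed from each other by little more than counting error, with a mean chi-square per gene of 1.28 in WT and 1.83 in Irf1-/- cells, against 5.86 to 7.47 for pairs with replicate 3. WT replicates 1 and 2 held Y-linked transcripts with a summed normalized count of 2301 and 2306, and the other 4 libraries held between 0 and 11.1, so that sex and genotype were not balanced over the libraries. The targeted gene Irf1 was at 2968, 2907 and 2660 in WT and at 1780, 1729 and 1476 in Irf1-/- libraries. A count over the whole gene does not single out the deleted part, so these values do not check the genotype labels. All 7 CD4 T cell markers were detected, with a summed normalized count of 12752 to 12985 in WT and 11846 to 12316 in Irf1-/- libraries. The 2 CD8 T cell markers summed to 32.4, 32.5 and 41.2 in WT and to 20.3, 23.6 and 30.7 in Irf1-/- libraries. Both sums were thus lower in Irf1-/- libraries without overlap, in the direction of the 4 genes that fell, and their part in those results was not tested. Of 10 myeloid markers 8 were above 3 reads in some library, and their sum was 54.9, 182 and 60.2 in the WT and 238, 1044 and 42.8 in the Irf1-/- libraries. The NK cell markers stayed at or below 2.39 in sum, with 3 of 4 at 0. In bulk RNA, fewer expressing cells and less RNA per cell cannot be told apart.

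Ifi27l2a showed the largest fold change of the 5 tested genes. It codes for a small interferon-induced hydrophobic protein of the Ifi27 family and lies on chromosome 12 from 103442167 to 103443680 on the - strand (ENSMUSG00000079017). Its normalized counts were 119.8, 135.8 and 129.1 in WT and 50.1, 54.1 and 54.96 in Irf1-/- libraries. All Irf1-/- values lay close together and far below the lowest WT value. The mean was 128 ± 8.05 in WT and 53.1 ± 2.56 in Irf1-/- cells (SD, n = 3 each), which limma put at -1.26 on the log2 scale (standard error 0.131, 95% interval -1.55 to -0.97, adjusted p = 1.16e-04).

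Ifi27, the neighbouring family member, lies on the + strand of the same chromosome from 103434211 to 103440239 (ENSMUSG00000064215). Its normalized counts were 76.1, 73.3 and 77.5 in WT and 31.0, 56.9 and 44.1 in Irf1-/- libraries. The WT values lay close together and above all Irf1-/- values, which were spread widely and highest in replicate 2. The means were 75.6 ± 2.10 and 44.0 ± 12.9 (SD, n = 3 each), or -0.81 on the log2 scale in limma (standard error 0.211, 95% interval -1.28 to -0.34, adjusted p = 0.0190). Irf1-/- replicate 2 also had the highest myeloid sum, and the part of those cells in the Ifi27 value was not tested. Without that library the log2 fold change was larger, at -1.01. The call did not hold without Irf1-/- replicate 1 (adjusted p = 0.0552), WT replicate 1 (0.0620) or WT replicate 2 (0.0572), all in limma.

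Only 1927 bp separate Ifi27 and Ifi27l2a in GENCODE vM21, on opposite strands, and their models there do not overlap. The libraries were made with the NEBNext Ultra RNA kit, whose standard version does not mark strand. Reads from a stretch that transcripts of both genes might cover could thus not be assigned by strand. The log2 ratio of Ifi27 to Ifi27l2a was -0.75 ± 0.118 in WT and -0.31 ± 0.373 in Irf1-/- cells (SD, n = 3 each). The difference of 0.45 gave an exact two-sided permutation p of 0.2, or 0.267 after adjustment over 4 ratios, where 3 against 3 cannot go below 0.1. At this number of samples, unequal falls of the pair could not have been shown by that test. With a library left out in turn the difference was 0.26 to 0.63, smallest without Irf1-/- replicate 2.

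**Figure D2:**
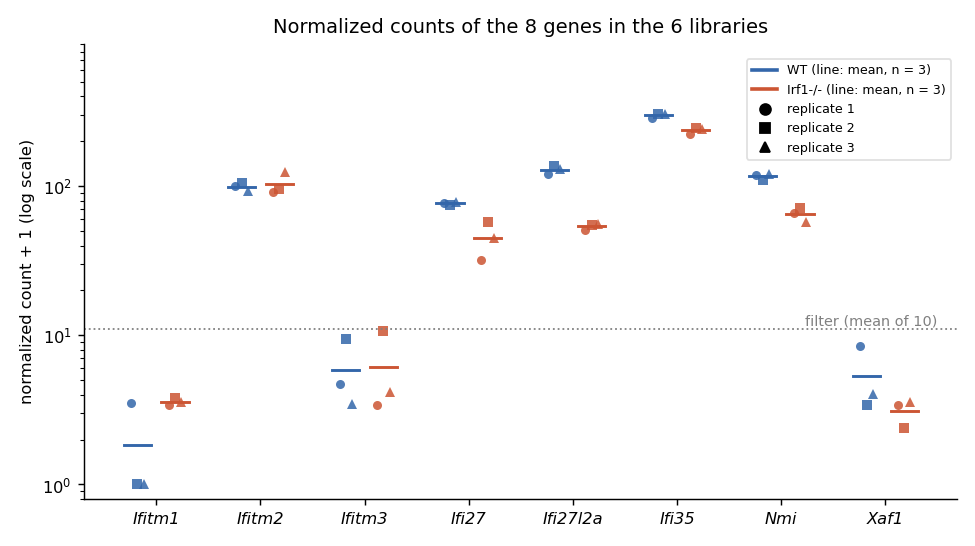
Normalized counts plus 1 (log axis) of the 8 genes in each of the 6 libraries, with WT in blue, Irf1-/- in orange, a symbol for each replicate and a line at the mean of 3. Ifi27, Ifi27l2a, Ifi35 and Nmi have all Irf1-/- points below all WT points, Ifitm2 overlaps, and Ifitm1, Ifitm3 and Xaf1 lie below the dotted line of the filter.

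Nmi codes for the N-Myc and STAT interactor, a cytosolic protein that binds IFI35 and is released by stressed cells as an inflammatory signal. It lies on chromosome 2 from 51948487 to 51973494 on the - strand (ENSMUSG00000026946). The WT libraries held 117.3, 109.4 and 119.9 and the Irf1-/- libraries 65.7, 70.7 and 56.9 normalized counts. No Irf1-/- value came near the lowest WT value. With means of 116 ± 5.46 and 64.4 ± 7.01 (SD, n = 3 each), the log2 fold change was -0.84 (standard error 0.136, 95% interval -1.14 to -0.54) and the adjusted p 0.00177 in limma. In the pair of replicate 3 alone it was -1.06, and in replicates 1 and 2 alone -0.72.

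Ifi35, whose protein forms a complex with NMI, was the most abundant of the 8 genes by normalized count and fell least among those called. It lies on chromosome 11 from 101448407 to 101458698 on the + strand (ENSMUSG00000010358). Its WT values were 287.0, 305.4 and 304.3 and its Irf1-/- values 224.5, 245.5 and 239.7. The groups did not overlap, with a gap that was wider than the range within either of them. The means were 299 ± 10.3 and 237 ± 10.8 (SD, n = 3 each), and limma gave a log2 fold change of -0.34 (standard error 0.0823, 95% interval -0.52 to -0.15, adjusted p = 0.0140). The fold change stayed between -0.37 and -0.30 under 20 alternatives, but the adjusted p rose to 0.0599 in DESeq2, 0.0854 with replicates 1 and 2 averaged, 0.0520 with the Y-linked sum as a covariate, and 0.0576 and 0.0594 without Irf1-/- replicate 1 and WT replicate 2.

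The log2 ratio of the partner genes Ifi35 to Nmi was 1.36 ± 0.0974 in WT and 1.86 ± 0.166 in Irf1-/- cells (SD, n = 3 each), and the groups did not overlap. The difference of 0.50 reached the smallest exact permutation p that 3 against 3 samples allow, 0.1, and had an adjusted p of 0.267 over the 4 ratios, so that unequal changes of the partners were not shown.

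Ifitm2 belongs to the Ifitm cluster on chromosome 7, where it spans 140954837 to 140955987 on the - strand (ENSMUSG00000060591). The WT libraries held 99.8, 103.4 and 92.2 and the Irf1-/- libraries 90.7, 94.3 and 124.0 normalized counts. The lowest as well as the highest value of all 6 came from Irf1-/- cells, and the groups overlapped. In limma its fold change was 0.05 on the log2 scale (standard error 0.146, 95% interval -0.27 to 0.37, adjusted p = 0.834). That interval overlapped the interval of Ifi35, -0.52 to -0.15, whose fold change was the smallest of those called. The difference between Ifitm2 and Ifi35 was not tested. The sign was not stable, with -0.13 in replicates 1 and 2 alone, 0.42 in the pair of replicate 3 and -0.0258 after quantile normalization.

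Ifitm3 (ENSMUSG00000025492, chromosome 7 from 141009586 to 141010770 on the - strand) had 3, 7 and 4 reads in WT and 2, 7 and 5 reads in Irf1-/- libraries. In normalized counts these were 3.74, 8.42 and 2.46 in WT and 2.39, 9.71 and 3.20 in Irf1-/- cells, highest in replicate 2 of either genotype. Those libraries also had the highest myeloid sum of their genotype, with Lyz2, the lysozyme of macrophages and granulocytes, at 96.2 in WT replicate 2 and 559 in Irf1-/- replicate 2, while S100a9 was at 0 in all 6. The part of such cells in the Ifitm3 counts was not tested. Over all reads of a genotype the ratio of Irf1-/- to WT was 1.04, with an exact 95% interval of 0.461 to 2.36 that covers counting error only.

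Ifitm1 (ENSMUSG00000025491, chromosome 7 from 140967221 to 140969825 on the + strand) was close to absent, with 2, 0 and 0 reads in WT and 2, 2 and 4 in Irf1-/- libraries. The ratio of Irf1-/- to WT over all its reads was 4.17, with an exact 95% counting interval of 0.833 to 40.4. Xaf1 (ENSMUSG00000040483, chromosome 11 from 72301629 to 72313733 on the + strand) had 6, 2 and 5 reads in WT and 2, 1 and 4 in Irf1-/- libraries, a ratio of 0.562 with an interval of 0.190 to 1.52. For Ifitm3 and Xaf1 these intervals hold a fall as large as that of Nmi, which was not detectable at this depth. The Ifitm1 to Ifitm3 ratio gave an exact permutation p of 0.2 and the Ifitm2 to Ifitm3 ratio one of 0.8, both before adjustment over the 4 ratios.

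**Figure D3:**
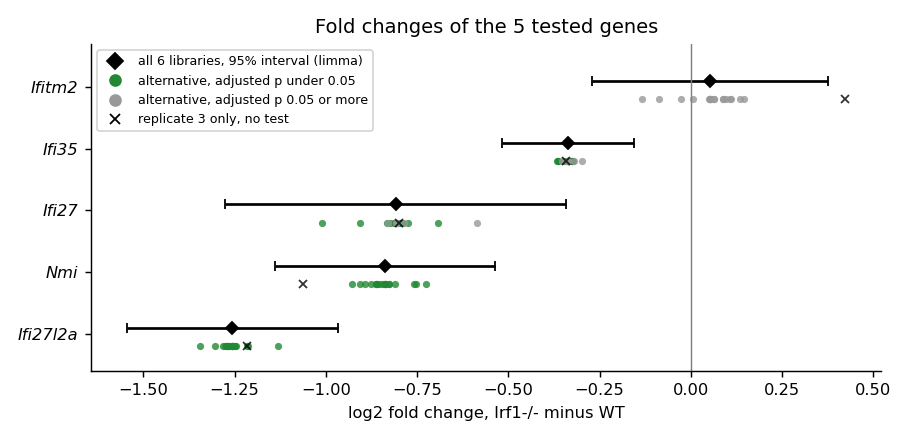
Log2 fold changes of the 5 tested genes, Irf1-/- minus WT, with 95% intervals from limma over all 6 libraries (diamonds) and, below each, the values under the alternatives (green where the adjusted p is under 0.05, grey where it is not, crosses for replicate 3 alone). Ifi27l2a and Nmi stay green throughout, Ifi27 and Ifi35 keep their direction with some grey points, and Ifitm2 lies on both sides of 0.

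Read against the whole table, 4 of the 5 tested genes were lower and 0 higher at an adjusted p under 0.05 in limma, where 12.4% of all 11379 tested genes were lower and 11.4% higher. At an unadjusted p under 0.05 these counts were 4 and 0, where 18.9% of all genes were lower and 17.8% higher. In edgeR they were 4 and 0 (12% and 11% of all genes), and in DESeq2 3 and 0 (9.5% and 8.08%). The count of lower genes was 2, Ifi27l2a and Nmi, with the Y-linked sum as a covariate, where 9.66% of all genes were lower, without Irf1-/- replicate 1 (8.82%) and without WT replicate 2 (7.26%). In the same 4 genes all Irf1-/- values were below all WT values, as in 20.9% of all genes. By log2 fold change Ifi27l2a was at percentile 1.05 of the tested genes, counted from the lowest, Nmi at 1.99, Ifi27 at 2.18, Ifi35 at 9.88 and Ifitm2 at 58.4. The median log2 fold change was -0.81 over the 5 genes and -0.0037 over all genes. Ifi27l2a and Nmi kept their call under each of 19 alternatives with a test, with adjusted p-values up to 0.00741 and 0.0271, whereas Ifi27 and Ifi35 each lost it under 5.

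**Figure D4:**
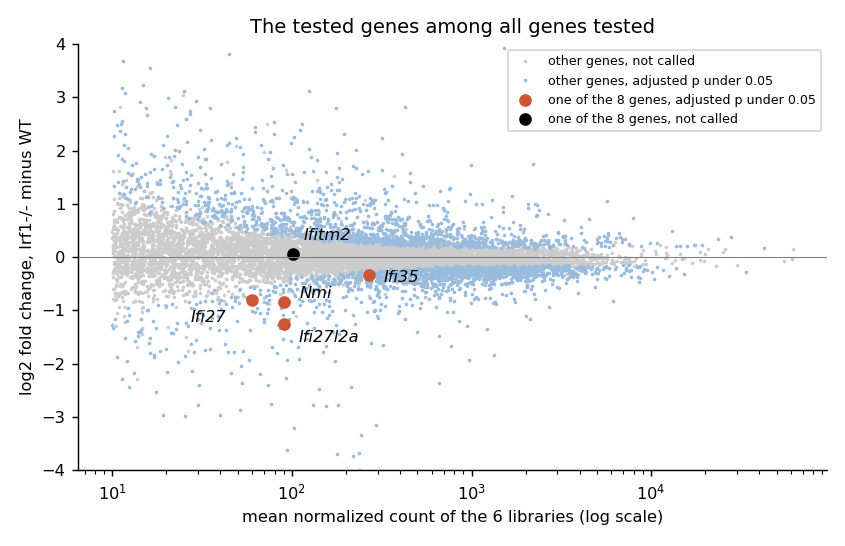
Mean normalized count over the 6 libraries (log axis) against the log2 fold change, Irf1-/- minus WT, of all tested genes, with the 5 tested genes of this group named. Ifi27l2a, Nmi and Ifi27 lie at the lower edge of genes of like abundance, Ifi35 lies closer to 0, Ifitm2 lies near 0, and 14 genes beyond 4 in either direction are not shown.

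Divided by the length of the gene's exons in kilobases, the levels could be ordered between genes. In WT cells Ifi27l2a came first with 277 ± 17.4 normalized counts per kb, before Ifi35 with 173 ± 5.95, Ifitm2 with 150 ± 8.73, Nmi with 57.7 ± 2.73 and Ifi27 with 51.6 ± 1.43 (SD, n = 3 each). Neighbours in this order did not overlap, down to Ifitm3 with 7.19 ± 4.62. Xaf1 with 0.922 and Ifitm1 with 0.760 came last and overlapped. In Irf1-/- cells Ifitm2 stood first with 157 ± 27.9 and overlapped Ifi35 with 137 ± 6.28, and Ifi27l2a had moved to the third place with 115 ± 5.54. Nmi with 32.2 ± 3.50 and Ifi27 with 29.99 ± 8.80 followed and overlapped, with Ifitm3 at 7.52 ± 5.92, Ifitm1 at 2.35 and Xaf1 at 0.4501 below them. Ifitm2 made up 94.2% ± 3.68 of the summed level per kb of 7 Ifitm genes in WT and 93.2% ± 3.49 in Irf1-/- cells. How reads matching several Ifitm genes were counted is not given, and its effect on this share was not tested.

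By level, none of the tested genes stood high in these T cells. Ifi35 was at percentile 50.9 of the tested genes in WT and at 44.8 in Irf1-/- cells. Ifi27l2a went from percentile 32.5 to 18.9, Nmi from 30.6 to 21.2 and Ifi27 from 24.1 to 16.8, while Ifitm2 was at 28.04 and 27.9.

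Genes of the surrounding pathways were taken from lists written from general knowledge. Of 22 other interferon-induced genes 16 were tested, and 9 of them were lower and 0 higher, with a median log2 fold change of -0.50, against 12.4% lower and 11.4% higher among all genes. Isg20, counted among the 9 and named after its value was seen, was at 20.4 ± 7.08 in WT and 7.20 ± 3.21 in Irf1-/- cells and passed the filter only through the former, so its call is no result. Without it 8 of 15 were lower, with a median of -0.40. With all 16, limma gave 11 lower and 0 higher at an unadjusted p under 0.05 (18.9% and 17.8% of all genes), edgeR 9 and 0 (12% and 11%) and DESeq2 8 and 0 (9.5% and 8.08%). Parp14, an ADP-ribosyltransferase, fell from 1100 ± 28.9 to 214 ± 20.7, by 2.36 on the log2 scale (adjusted p = 4.49e-08 in limma). Ifi47, an immunity-related GTPase, was at 1741 ± 77.0 and 689 ± 88.6 (log2 fold change -1.34, adjusted p = 5.46e-06), and the secreted glycoprotein gene Lgals3bp at 525 ± 44.7 and 260 ± 14.2 (-1.01, 3.25e-05). Ifi27l2a thus had a fold change between those of Lgals3bp and Ifi47. The 7 tested genes that did not pass the threshold had log2 fold changes between -0.93 and 0.29.

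Of 14 genes of interferon signalling, all tested, 3 were lower and 1 higher, with a median of 0.05, against 12.4% and 11.4% of all genes. Irf2, an IRF family member that competes with IRF1 for the same elements, had a log2 fold change of -0.99 (adjusted p = 3.15e-04 in limma). Irf8, an IRF factor of lymphoid and myeloid cells, was at -0.35 (0.0178). The gene counted as higher was Irf7, the IRF factor of type I interferon induction, named here after its value was seen. With 7.36 ± 0.138 in WT and 17.0 ± 2.77 in Irf1-/- cells, it passed the filter only through the group where it was high, so its call is no result. Of the other 13 genes 3 were lower. With all 14, limma gave 4 lower and 2 higher at an unadjusted p under 0.05 (18.9% and 17.8% of all genes). In edgeR the counts were 3 and 1 (12% and 11%), and in DESeq2 3 and 0 (9.5% and 8.08%).

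Among 5 genes whose products modify IFITM proteins or act with them in membrane traffic, 1 was lower and 0 higher, against 12.4% and 11.4% of all genes, and the median was -0.02. An unadjusted p under 0.05 in limma (18.9% and 17.8% of all genes) gave the same counts, as did edgeR (12% and 11%). DESeq2 called 0 in either direction (9.5% and 8.08%). The protease gene Zmpste24 was at -0.25 (adjusted p = 0.0402 in limma), whereas Vapa, which codes for a membrane contact protein, was at 0.06 (0.509) and the ubiquitin ligase gene Nedd4 at 0.05 (0.727). None of 5 further Ifitm and Ifi27-like genes was tested. They were Ifitm5, Ifitm6, Ifitm7, Ifitm10 and Ifi27l2b, and no library held a normalized count above 2.404 for any of them, with Ifi27l2b listed at 0 throughout.

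Of 6 genes whose products bind NMI or IFI35 or act with them, 2 were lower and 0 higher, against 12.4% and 11.4% of all genes, with a median of -0.12. The counts were the same at an unadjusted p under 0.05 in limma (18.9% and 17.8% of all genes), in edgeR (12% and 11%) and in DESeq2 (9.5% and 8.08%). Of these, Stat5a, a STAT factor of the IL-2 receptor, was at -0.22 on the log2 scale (adjusted p = 0.00870 in limma), and the ubiquitin ligase gene Trim21 was at -0.19 (0.268). Of 9 genes of the XAF1 pathway of cell death 2 were lower and 0 higher, with a median of 0.02, against 12.4% and 11.4% of all genes. At an unadjusted p under 0.05 in limma these were 3 and 2 (18.9% and 17.8% of all genes). In edgeR they were 2 and 0 (12% and 11%), and in DESeq2 0 and 0 (9.5% and 8.08%). The genes called by limma but not by DESeq2 were Birc3 at -0.22 (adjusted p = 0.0179) and Xiap, the binding partner of XAF1, at -0.24 (0.0417). Diablo, which codes for an antagonist of XIAP, was at 0.20 (0.0818).

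**Figure D5:**
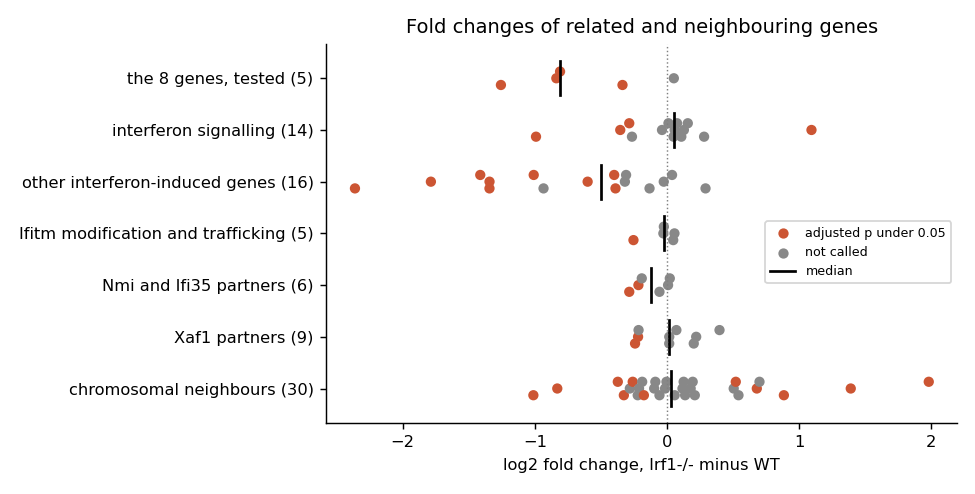
Log2 fold changes, Irf1-/- minus WT, of the tested genes in each list, with the number tested in brackets, orange for an adjusted p under 0.05, grey for genes not called and a line at the median. The 5 genes and the other interferon-induced genes lie mainly below 0, with medians of -0.81 and -0.50, and the other lists and the chromosomal neighbours have medians between -0.12 and 0.05.

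The nearest 3 tested genes on either side of each gene gave 30 distinct neighbours, of which 6 were lower, 5 higher and 19 not called, with a median log2 fold change of 0.03, against 12.4% lower and 11.4% higher among all genes. The neighbours were not shown to differ from all genes by these counts. Without Smtnl2, treated with Xaf1, 6 of 29 were lower and 4 higher. Nmi had lower neighbours on both sides. Rbm43, an RNA-binding protein gene 13.3 kb away on the same strand, was at 164 ± 19.2 in WT and 91.5 ± 7.31 in Irf1-/- cells (log2 fold change -0.83, adjusted p = 0.00130 in limma), nearly the fold change of Nmi. Rif1, which codes for a factor of replication timing and DNA repair, lay 99.3 kb away on the other side and was at -0.37 (0.00167).

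Of the 6 neighbours of Ifi35 only Vat1 was called in limma, as higher. Vat1, a vesicle membrane protein gene, ends 46 bp from the end of Ifi35 on the opposite strand and rose from 104 ± 9.84 to 167 ± 17.9 (log2 fold change 0.68, adjusted p = 0.00357 in limma). The ribosomal protein gene Rpl27, 2.88 kb away on the other side, was at 0.06 (0.725), and Rundc1, Ptges3l, Brca1 and Nbr1 were not called, with log2 fold changes between -0.06 and 0.21. An antisense model within Ifi35, Gm11626, held at most 2.56 normalized counts in any library.

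Around the Ifi27 pair the changes went both ways. Ddx24, a helicase gene 8.38 kb from Ifi27, was at -0.26 (adjusted p = 0.00678 in limma) and Serpina3f, a serine protease inhibitor gene 771 kb from Ifi27l2a, at -1.01 (0.00393). Asb2, which codes for a subunit of a ubiquitin ligase, was at 1.98 (0.00496), from 30.8 ± 16.9 in WT to 119 ± 54.4 in Irf1-/- cells. Otub2, Serpina3g and Serpina3i were not called. Serpina3i, at 7.54 ± 3.26 in WT and 12.9 ± 5.69 in Irf1-/- cells, passed the filter only through the latter and was kept in the neighbour counts.

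Along the Ifitm cluster, where Ifitm1, Ifitm2 and Ifitm3 span 55.9 kb, 2 of 6 tested neighbours were higher in limma and in edgeR, and 1 in DESeq2. Of all tested genes 11.4% were higher in limma, 11% in edgeR and 8.08% in DESeq2. So few neighbours were not shown to differ from these shares. Pgghg, a glucosidase gene 7.17 kb from Ifitm2, was at 0.52 (adjusted p = 0.0232) and the plakophilin gene Pkp3 at 0.88 (4.32e-04). Sirt3, Psmd13, B4galnt4 and Sigirr were not called, with log2 fold changes between -0.01 and 0.50. A same-strand model that overlaps Ifitm2, Gm45717, was not a row of the table.

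Xaf1 lies 18.5 Mb and Ifi35 47.7 Mb from Irf1 itself on chromosome 11. Of the 6 neighbours of Xaf1, Txndc17 (-0.33, adjusted p = 0.0267 in limma) and Mybbp1a (-0.17, 0.0275) were lower. Smtnl2, counted among the 5 higher neighbours, was at 8.74 ± 4.40 in WT and 22.6 ± 4.31 in Irf1-/- cells and passed the filter only through the latter, so its call is no result.

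The genes most alike to each of the 3 tested genes with the largest fold change were found by the root mean square difference of their log2 values over the 6 libraries, each gene centred on its own mean. The closest to Ifi27l2a were Il12rb1, a chain of the IL-12 receptor, with a difference of 0.0801, Psme1, a proteasome activator subunit, with 0.0824, and Ly75, an endocytic receptor, with 0.0898. Nmi lay closest to Tap2, a peptide transporter of antigen presentation (0.0800), to the cell cycle factor gene E2f7 (0.0924) and to Irf1, the targeted gene (0.0931). Their log2 fold changes were -0.77, -0.87 and -0.78, near the -0.84 of Nmi. The measure thus depends in large part on the fold change between genotypes and does not show shared regulation. Ifi27 had less similar companions in the Schlafen gene Slfn1 (0.105), the uncharacterized 4833407H14Rik (0.134) and the lipid transfer protein gene Cptp (0.142). Among the other tested genes of the group, Ifi27l2a was closest to Nmi at 0.251, and Nmi and Ifi27 were closest to each other at 0.242.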

How the data were processed

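RNA-Seq of poly(A) RNA from 3 WT and 3 Irf1-/- Th9 cultures was analysed, without the ChIP-Seq part of the study. The authors aligned single-end reads to GRCm38 with STAR 2.4.0b, assigned them to Ensembl genes by featureCounts and normalized them with DESeq2 1.12.3. The deposited signal is a normalized count, that is, the read count of a gene over its library's size factor. How reads matching several genes were counted is not given in the sources used here. Multiplied back, 100% of the values above 0 came out as whole reads to within 0.001 read.

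Every gene whose mean normalized count reached 10 was tested with limma 3.58.1 in R 4.3.3, by eBayes with a trend on log2 of the normalized count plus 1, with Benjamini-Hochberg adjustment over 11379 genes and a threshold of 0.05. All fold changes are on that scale. The unit is not a raw count, so count tests of the recovered reads were kept as alternatives. These were edgeR 4.0.16 and DESeq2 1.42.0, which called 1371 lower and 1252 higher genes and 1081 and 919, respectively. Ratios between genes were compared by exact permutation tests (scipy 1.17.1). Where nothing else is said, p-values measure the spread between these cultures, which the study calls independent samples. Replicates 1 and 2 of each genotype differed by little more than counting error, and whether they are independent was not tested. If they are not, the p-values and SDs rest on fewer independent samples than stated. With replicates 1 and 2 averaged, lower calls over all genes went from 1406 to 394 and higher calls from 1293 to 413 in limma.

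Symbols, positions and exon lengths came from GENCODE vM21 on GRCm38, and 40254 of 41388 identifiers had a symbol. Named genes are the 8 genes, the 3 with the lowest adjusted p in each list, the nearest 3 tested genes on either side, and the 3 most alike in profile. The values of 1 listed gene are not reported here. The members and lists were chosen with earlier results of these data known. As alternatives, the pseudocount was set to 0.1 or 10, the filter to a mean of 50 or dropped, the scaling to TMM factors or quantiles, and the trend left out. Others were a replicate block, the summed Y-linked level as a covariate, replicates 1 and 2 averaged or alone, replicate 3 alone, edgeR, DESeq2 and each library left out in turn. The counts without called genes that passed the filter through 1 group were added after seeing the data. Genes not called that passed it in this way were kept. Markers of CD4 T, CD8 T, B, NK and myeloid cells were summed. Those of B cells from 22.4 to 41.8, with Pax5 at 0. Th9 markers ranged from 12282 to 15789 in WT and from 18106 to 20599 in Irf1-/- libraries.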

Additional observations from a re-analysis of the deposited data

How the results depend on the processing

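The lower levels of Ifi27l2a and Nmi kept their direction and call in all 19 alternatives with a test, and Nmi was at -1.06 in the pair of replicate 3, a comparison of 1 library each with no test. The count of lower genes went from 4 to 2 with the Y-linked covariate, with which lower calls over all genes went from 1406 to 1099, and ranged from 2 to 4 over the libraries left out in turn. Ifi27 had -0.79 (adjusted p = 0.0715) with that covariate and -0.81 (0.0515) without a trend in limma, and -1.01 to -0.58 with a library left out. Ifi35 was at -0.34 in DESeq2 (0.0599), at -0.35 with the covariate (0.0520) and at -0.34 with replicates 1 and 2 averaged (0.0854), and at -0.37 to -0.30 with a library left out. Ifitm2 was at -0.0258 after quantile normalization, -0.13 in replicates 1 and 2 and 0.42 in replicate 3, and at -0.0877 to 0.135 with a library left out. Ifitm1, not tested, moved from 1.23 to 3.17 and 0.22 with pseudocounts of 0.1 and 10, as its counts are near 0. The log2 ratio of Ifitm2 to Ifitm3 changed by 0.06 between genotypes, and by -0.31 to 0.62 with a library left out. The causes of the other shifts were not tested.

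List medians moved as follows. Interferon signalling was at 0.15 in replicate 3, 0.11 with replicates 1 and 2 averaged and -0.00633 in replicates 1 and 2. The other interferon-induced genes were at -0.70 with the covariate, -0.39 with no filter and -0.66 in replicate 3. The Ifitm modification genes were at 0.0459 after quantile normalization and 0.0589 in replicate 3. The Nmi and Ifi35 partners were at -0.20 with the covariate, -0.0675 in replicates 1 and 2, and -0.143 to -0.0524 with a library left out. The Xaf1 partners were at 0.0845 after quantile normalization and 0.0662 in replicates 1 and 2.

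Over all genes, 1406 lower and 1293 higher calls became 1099 and 856 with the covariate, 1004 and 917 without Irf1-/- replicate 1, 394 and 413 with replicates 1 and 2 averaged, 2085 and 1810 in replicates 1 and 2 alone, 807 and 928 without a trend, 895 and 820 without Irf1-/- replicate 2, 829 and 808 without WT replicate 1, and 826 and 799 without WT replicate 2. Deviations of same-numbered WT and Irf1-/- libraries correlated at 0.0922, 0.269 and 0.321, and each library correlated best with its own number. The first value is under 0.1, so the numbers were not taken as pairs. A replicate block gave 2116 lower and 1893 higher calls, with adjusted p-values of 6.94e-07 for Ifi27l2a, 1.17e-04 for Nmi, 0.00304 for Ifi35, 0.00201 for Ifi27 and 0.813 for Ifitm2. It changed none of the 5 calls. Depth limits Ifitm1, Ifitm3 and Xaf1, with 0 to 7 reads per library, against 26 to 495 for the tested genes.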
